A study of Mus musculus with 8 samples.

Results

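The 10 genes described here, Bnip3, Bnip3l, Ndrg1, Ddit4, Vegfa, Adm, P4ha1, P4ha2, Kdm3a and Ankrd37, are known transcriptional targets of hypoxia-inducible factor 1 (HIF-1) that encode neither a glycolytic enzyme nor a glucose or lactate transporter. They were picked by symbol out of the 55385 genes of the count table, after Ensembl identifiers had been matched to mouse GENCODE symbols. All 10 passed the filter on low counts and were among the 17445 genes tested. The choice used the known role of each gene and not a threshold on these counts, but it was made with earlier results of these data known. All libraries came from R1, a mouse embryonic stem cell (mESC) line of male origin labelled WT, which was grown in N2B27 medium with 2i and Lif on plates coated with poly-L-ornithine and laminin. Cells were infected for 2 days with a lentivirus carrying a short hairpin RNA and were then selected with puromycin for 3 days, and polyA RNA was sequenced. The groups were Eftud2 shRNA1 (3 libraries), Eftud2 shRNA2 (3 libraries) and a non-targeting hairpin, nt-shRNA (2 libraries), which shared the cell line, the infection and the selection. Eftud2 encodes a GTPase of the U5 small nuclear ribonucleoprotein, a core part of the spliceosome, and the study used the hairpins as a weaker (shRNA1) and a stronger (shRNA2) knockdown.

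HIF-1 is a pair of proteins, an alpha subunit that is made continually and a beta subunit, Arnt, that is stable. When oxygen is present, prolyl hydroxylases mark the alpha subunit, the Vhl ubiquitin ligase binds the mark, and the proteasome degrades the protein. When oxygen or the cofactors of the hydroxylases run short, the alpha subunit persists, joins Arnt and binds short core motifs near its target genes. These targets include glycolytic enzymes, but also genes for vessel growth, collagen modification, mitochondrial removal and chromatin demethylation. Most of the genes described here, though not Ddit4, Ndrg1 and Ankrd37, have one of these last roles. Naive mESCs are also known for active glycolysis in ordinary culture.

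The oxygen-sensing step acts on protein, and the counts measure RNA, so neither HIF-1 protein nor its binding was measured. The closest that the reference comes to the binding step is the promoter sequence, and the windows of 4 members are shown because they hold core motifs and their genes went in different directions. RefSeq promoter windows of 300 bases (build GRCm38.p6, 250 bases before and 50 after an annotated start) were found for 8 members and gave 11 windows. Windows were not matched for Ndrg1 and Bnip3l. The windows were searched on both strands for ACGTG and GCGTG, the letters of the HIF core motif, which read CACGT and CACGC on the opposite strand. Overlapping matches were each counted, so the palindrome CACGTG counts as ACGTG on each strand. Capitals mark the matches, and each sequence is written 5′ to 3′ on the gene's own strand. The Bnip3 window is chr7:138909457-138909756 (minus strand), the P4ha1 window chr10:59323046-59323345 (plus strand), the P4ha2 window chr11:54100674-54100973 (plus strand) and the Kdm3a window chr6:71632868-71633167 (minus strand).
Bnip3: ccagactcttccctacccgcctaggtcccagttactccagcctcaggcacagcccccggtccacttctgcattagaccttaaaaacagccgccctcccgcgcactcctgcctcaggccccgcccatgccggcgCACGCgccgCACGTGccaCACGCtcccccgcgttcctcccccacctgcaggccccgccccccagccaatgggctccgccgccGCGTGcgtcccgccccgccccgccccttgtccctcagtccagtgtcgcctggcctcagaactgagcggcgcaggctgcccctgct
P4ha1: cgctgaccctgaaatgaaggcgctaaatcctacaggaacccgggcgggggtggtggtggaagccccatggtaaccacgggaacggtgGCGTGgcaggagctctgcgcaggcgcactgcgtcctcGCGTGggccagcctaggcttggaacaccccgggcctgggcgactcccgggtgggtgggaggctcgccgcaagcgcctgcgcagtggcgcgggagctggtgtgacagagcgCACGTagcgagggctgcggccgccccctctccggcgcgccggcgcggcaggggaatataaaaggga
P4ha2: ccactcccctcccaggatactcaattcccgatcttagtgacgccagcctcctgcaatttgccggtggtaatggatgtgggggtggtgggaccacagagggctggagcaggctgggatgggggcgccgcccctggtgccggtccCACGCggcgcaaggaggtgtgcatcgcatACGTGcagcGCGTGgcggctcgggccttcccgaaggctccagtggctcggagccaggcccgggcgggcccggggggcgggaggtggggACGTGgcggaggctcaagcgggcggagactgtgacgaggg
Kdm3a: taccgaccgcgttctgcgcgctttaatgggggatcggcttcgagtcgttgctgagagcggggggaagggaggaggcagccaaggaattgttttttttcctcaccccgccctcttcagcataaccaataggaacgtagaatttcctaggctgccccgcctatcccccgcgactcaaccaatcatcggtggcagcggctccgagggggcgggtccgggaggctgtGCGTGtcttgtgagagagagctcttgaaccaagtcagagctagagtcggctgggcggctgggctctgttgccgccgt

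At least 1 match was found in 8 of the 11 windows, and each of the 8 members had such a window. For Vegfa that window was only one at a start inside the gene. Among all 32851 RefSeq windows of this length, 43.8% held at least 1 match, 19.6% held ACGTG and 32.4% held GCGTG. The Bnip3 window held 5 matches, of which 2 form the palindrome 108 and 107 bases before the start. Ankrd37 and P4ha2 had 4 matches each and P4ha1 had 3, whereas 8.93% of all windows held 3 or more. Ddit4 and Adm had 2 each. Vegfa had none in the window of its first annotated start and 2 in that of the second, and Kdm3a had 1 in the first of its 3 windows and none in the other two. The RefSeq starts of Ankrd37 and P4ha2 lie inside the GENCODE extent of these genes and not at its outer end, so their windows describe 1 start of each. The second Vegfa window (chr17:46025114-46025413) lies wholly within the gene (46016993 to 46032369). Its 2 matches are therefore not upstream of the gene. A match is a string of letters, and binding in these cells was not measured.

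**Figure D1:**
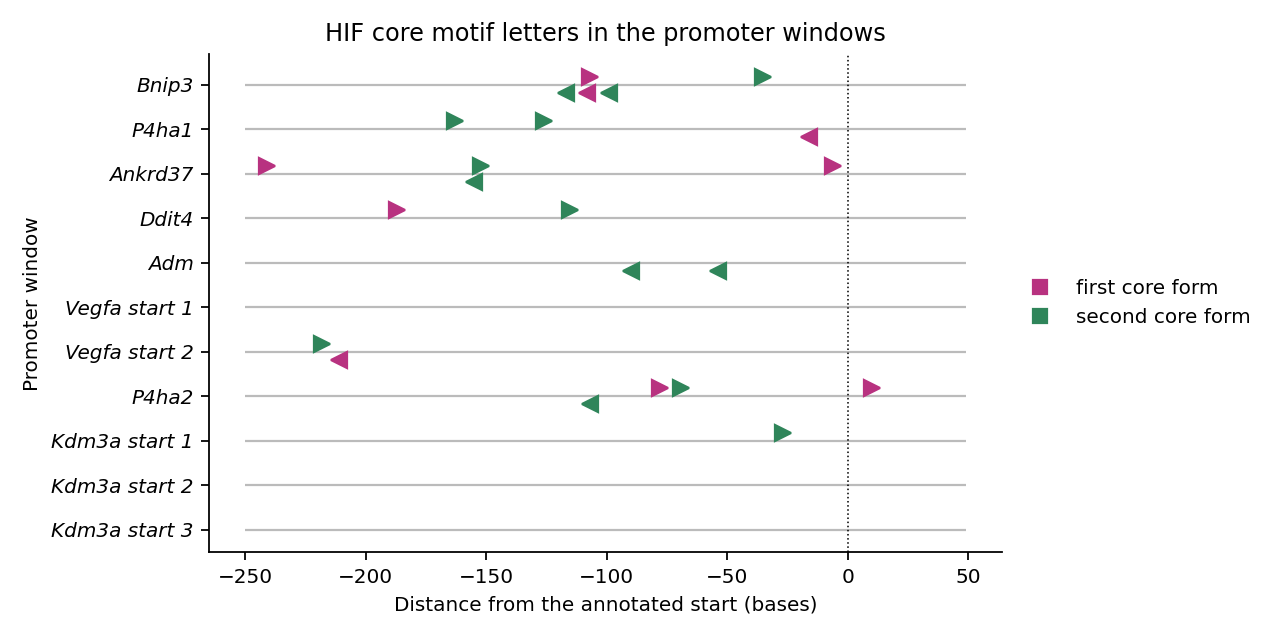
Matches to the 5-letter HIF core motif in the 11 RefSeq promoter windows of 8 members. The x axis gives the distance in bases of the first matched base from the annotated start, magenta marks ACGTG and green marks GCGTG, and triangles above and below each line point along the gene's strand and the opposite strand. The Bnip3 window held the most matches (5), and 1 Vegfa window and 2 Kdm3a windows held none.

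The libraries held between 19569525 and 29871048 counts each. Levels are given as CPM, which are counts scaled to a common library size with TMM factors, and 3 counts corresponded to between 0.1045 and 0.1481 CPM. Eftud2 was measured at 262 and 256 CPM in the nt-shRNA libraries, at 232, 229 and 225 CPM with shRNA1 and at 198, 202 and 235 CPM with shRNA2. In CPM all knockdown libraries were below both controls, but shRNA2 replicate 3 lay above all 3 shRNA1 libraries. This order depended on the scaling. In TPM, which is scaled by gene length, the controls were at 86.0 and 92.9. The shRNA1 libraries were at 94.9, 94.2 and 90.1 TPM and the shRNA2 libraries at 80.3, 79.9 and 95.8 TPM. The study reported larger falls of Eftud2 RNA by qPCR, more with shRNA2, and less EFTUD2 protein with each hairpin. The log2 fold change of Eftud2 was -0.29 with shRNA2 (edgeR adjusted p = 0.00122) and -0.18 with shRNA1, which was not called (edgeR adjusted p = 0.0514). Over 16 settings the shRNA1 value ranged from -0.21 to -0.06 and passed in 6, among them DESeq2 (adjusted p = 0.0487) and the fits without shRNA2 replicate 2 (edgeR adjusted p = 0.0415) or 3 (edgeR adjusted p = 0.0215). Eftud2 did not pass between the hairpins (-0.11, edgeR adjusted p = 0.164), but without shRNA2 replicate 3 it did (-0.19, edgeR adjusted p = 0.0127). The 2 nt-shRNA libraries differed more from each other than any other replicate pair (chi-square per gene 12.02, against 3.119 to 8.329). The labels call the replicates biological and say no more of their source, so p-values measure the spread between these libraries. In bulk RNA, fewer cells of a kind and less RNA per cell cannot be told apart. The summed level of 6 pluripotency markers was 3330 to 3396 CPM with nt-shRNA, 3748 to 3863 CPM with shRNA1 and 4480 to 4683 CPM with shRNA2. Of these markers 3 were called higher and 1 lower with shRNA1, and 4 higher and 1 lower with shRNA2. The summed level of 17 markers of other cells was 193 to 203, 164 to 185 and 133 to 142 CPM, most of it from Krt8 and Nes. Of the 15 that were tested, 1 was higher and 2 were lower with shRNA1, and 2 were higher and 4 lower with shRNA2, where 13.8% higher and 17.1% lower, and 27.2% higher and 28.7% lower, of all tested genes were called. None of the 17 was at 0 in any group, and Sox7 and Cdx2 were too low to test. Both sums moved with the groups, and their part in the results was not tested.

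Across the 10 HIF-1 targets, 6 were lower, 1 was higher and 3 were not called with shRNA1 (edgeR quasi-likelihood test, Benjamini-Hochberg adjusted p under 0.05), against 17.1% of all tested genes called lower and 13.8% called higher. With shRNA2, 7 were lower, 2 were higher and 1 was not called, against 28.7% lower and 27.2% higher among all tested genes. The median log2 fold change of the 10 genes was -0.44 with shRNA1 and -0.80 with shRNA2, and that of all tested genes was -0.01 and 0.00. When shRNA2 was compared directly with shRNA1, 6 were lower, 1 was higher and 3 were not called, against 18.7% and 16.9% of all tested genes, with a median of -0.37. The comparisons of shRNA1 and of shRNA2 with nt-shRNA share the 2 control libraries, so their values stand side by side and are not independent of each other. The members and the other lists were chosen with earlier results of these data known. The shares of all tested genes beside their counts are therefore a description and not a test. The 10 genes did not move as a block. Under shRNA2, Bnip3 and Ndrg1 fell furthest, Vegfa and P4ha1 fell by less, Bnip3l, Ankrd37 and Ddit4 fell by under 1 on the log2 scale, and P4ha2 and Kdm3a rose.

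**Figure D2:**
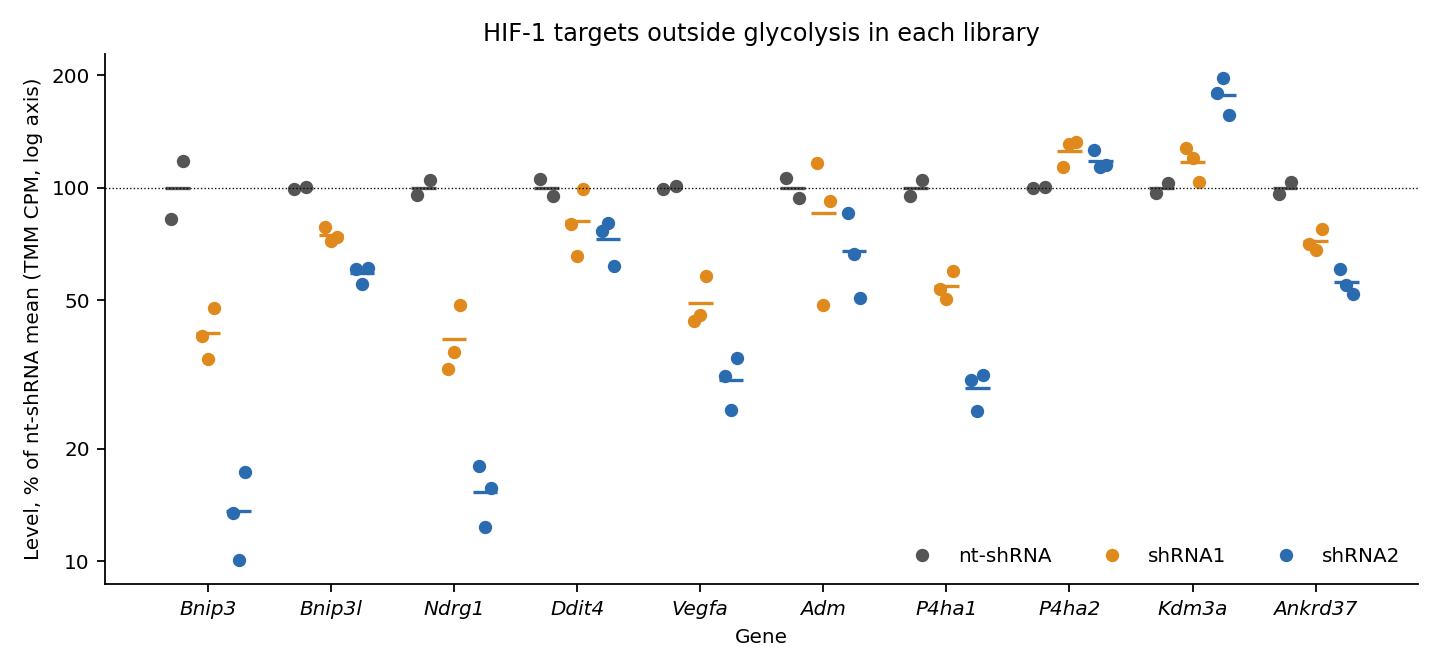
Level of each HIF-1 target in each of the 8 libraries, as a percentage of the mean of the nt-shRNA libraries (TMM-scaled CPM, log axis). Points are libraries, short bars are group means (n = 2 for nt-shRNA, n = 3 for each shRNA) and the dotted line is 100%. The shRNA2 libraries of Bnip3 lie between 10.1% and 17.3% and those of Kdm3a between 156% and 196%.

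Bnip3, Bnip3l and Ndrg1 had in common a lower level with each hairpin, but differed widely in its size. Bnip3 and Bnip3l encode outer mitochondrial membrane proteins of the BCL2 family that recruit the autophagy machinery to mitochondria. Bnip3 (chromosome 7, 138890836 to 138909519, minus strand) was measured at 49.1 and 70.0 CPM with nt-shRNA, at 24.0, 20.7 and 28.4 CPM with shRNA1 and at 8.05, 5.998 and 10.3 CPM with shRNA2. The 3 groups did not overlap, although the control libraries stood well apart from each other. Bnip3 had log2 fold changes of -1.28 ± 0.15 (SE) with shRNA1 (edgeR adjusted p = 3.96e-06) and -2.88 ± 0.17 with shRNA2 (edgeR adjusted p = 1.33e-10), the latter a level 7.34-fold lower. Between the hairpins, Bnip3 differed by a log2 fold change of -1.59 ± 0.16 (edgeR adjusted p = 1.73e-06).

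Bnip3l (chromosome 14, 66985239 to 67008877, minus strand) was measured at 124 and 125 CPM with nt-shRNA, at 97.5, 89.5 and 91.8 CPM with shRNA1 and at 75.4, 69.0 and 76.0 CPM with shRNA2. The groups again did not overlap and the libraries within each were close. Its log2 fold change was -0.42 ± 0.06 with shRNA1 (edgeR adjusted p = 6.81e-05) and -0.76 ± 0.06 with shRNA2 (edgeR adjusted p = 1.28e-08). Bnip3l also fell between the hairpins, by 0.34 ± 0.06 on the log2 scale (edgeR adjusted p = 0.000251). A pseudogene named Bnip3l-ps is annotated, and fragments that aligned to both places would not have been counted, so its level is uncertain to that extent.

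Levels of different genes were compared per length, in TPM. The TPM of Bnip3 divided by that of Bnip3l was 0.677 and 0.951 in the nt-shRNA libraries, 0.419, 0.395 and 0.527 with shRNA1 and 0.182, 0.148 and 0.232 with shRNA2. The ratio thus separated all 3 groups. Exact two-sided permutation tests gave p = 0.2 for each hairpin against nt-shRNA and p = 0.1 between hairpins, which are the smallest values that 3 against 2 and 3 against 3 libraries allow. By TPM over the full gene length, Bnip3l was the more abundant RNA of the pair in every library. Fragments in the 22.3% of Bnip3 exon bases shared with another gene were not counted, so the order in nt-shRNA replicate 2 (0.951) is uncertain.

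Ndrg1 (chromosome 15, 66929318 to 66969640, minus strand) encodes a cytoplasmic protein induced by hypoxia and by differentiation. It was measured at 48.0 and 52.6 CPM with nt-shRNA, at 16.5, 18.3 and 24.5 CPM with shRNA1 and at 9.07, 6.22 and 7.89 CPM with shRNA2. All shRNA1 libraries were below the controls and above all shRNA2 libraries. With shRNA1 the log2 fold change of Ndrg1 was -1.34 ± 0.13 (edgeR adjusted p = 4.85e-07). With shRNA2 it was -2.70 ± 0.14 (edgeR adjusted p = 5.61e-11), a level 6.52-fold lower. The difference between the hairpins was -1.36 ± 0.14 (edgeR adjusted p = 1.73e-06). Antisense genes overlap 22.3% of the exon bases of Bnip3 and 8.43% of those of Ndrg1, and fragments in the overlaps were counted for neither gene. The overlapping genes Gm45507, Gm17035 and Gm2895 were at most 0.104 CPM in any library.

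Ddit4 (chromosome 10, 59949669 to 59951834, minus strand) encodes an inhibitor of mTORC1 that is induced by several stresses besides hypoxia. Its level was 206 and 186 CPM with nt-shRNA, 157, 129 and 194 CPM with shRNA1 and 150.0, 158 and 121 CPM with shRNA2. The shRNA1 libraries overlapped both other groups, with replicate 3 inside the range of the controls, while the shRNA2 libraries lay below both controls. Ddit4 had a log2 fold change of -0.45 ± 0.12 under shRNA2 (edgeR adjusted p = 0.00328) and of -0.29 ± 0.12 under shRNA1, which was not called (edgeR adjusted p = 0.0712). The shRNA2 call was lost with DESeq2 (adjusted p = 0.058). Without shRNA1 replicate 3 the shRNA1 value was -0.46 and passed (edgeR adjusted p = 0.00314), as it did without shRNA2 replicate 3 (edgeR adjusted p = 0.0366) and with no filter (edgeR adjusted p = 0.000133). It shrank to -0.16 without shRNA1 replicate 2 (edgeR adjusted p = 0.324), and over 16 settings its adjusted p reached 0.361. Between the hairpins Ddit4 did not pass (edgeR log2 fold change -0.16, 95% interval -0.39 to 0.06, adjusted p = 0.256), but it did with no filter (adjusted p = 0.0179) and without shRNA1 replicate 2 (adjusted p = 0.0311).

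The secreted products were Vegfa and Adm, of which Vegfa fell and Adm was not called. Vegfa (chromosome 17, 46016993 to 46032369, minus strand) encodes the main growth factor for blood vessels. Its level was 169 and 172 CPM with nt-shRNA, 75.1, 77.6 and 98.9 CPM with shRNA1 and 53.5, 43.3 and 59.8 CPM with shRNA2. The controls were nearly equal, and no library of one group reached the range of another. On the log2 scale Vegfa differed by -1.02 ± 0.11 with shRNA1 (edgeR adjusted p = 1.11e-06) and -1.71 ± 0.11 with shRNA2 (edgeR adjusted p = 3.81e-10), 2.02-fold and 3.26-fold lower. Between the hairpins Vegfa fell by 0.69 ± 0.10 on the log2 scale (edgeR adjusted p = 5.02e-05).

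Adm (chromosome 7, 110627661 to 110629820, plus strand) encodes adrenomedullin, a peptide that widens vessels. It had 23 and 22 counts with nt-shRNA, 21, 8 and 21 counts with shRNA1 and 15, 12 and 9 counts with shRNA2. These correspond to 0.862 and 0.766 CPM, to 0.947, 0.395 and 0.749 CPM and to 0.698, 0.541 and 0.413 CPM. The shRNA1 libraries spanned more than the whole range of the controls, and the shRNA2 libraries lay below both controls. No comparison of Adm was called. Its log2 fold change was -0.20 with shRNA1 and -0.56 with shRNA2, and the 95% intervals were wide, from -0.92 to 0.52 with shRNA1 (edgeR adjusted p = 0.694) and from -1.32 to 0.20 with shRNA2 (edgeR adjusted p = 0.199). Both intervals included the Bnip3l value of the same hairpin (-0.42 with shRNA1 and -0.76 with shRNA2). A change of that size in Adm was therefore neither detected nor excluded.

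P4ha1 and P4ha2 encode alternative catalytic alpha subunits of collagen prolyl 4-hydroxylase, which hydroxylates proline in collagen in the endoplasmic reticulum, and they moved in opposite directions. P4ha1 (chromosome 10, 59323296 to 59373304, plus strand) was measured at 121 and 133 CPM with nt-shRNA, at 67.8, 64.0 and 76.1 CPM with shRNA1 and at 38.7, 32.0 and 40.2 CPM with shRNA2. The 3 groups were separate, with the shRNA2 libraries at 25.2% to 31.6% of the control mean. The log2 fold change of P4ha1 was -0.87 ± 0.09 with shRNA1 (edgeR adjusted p = 5.81e-07) and -1.78 ± 0.09 with shRNA2 (edgeR adjusted p = 3.6e-11), which ranked 10th by p-value of the 17445 genes. P4ha1 differed between the hairpins by -0.91 ± 0.08 (edgeR adjusted p = 8.22e-07).

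P4ha2 (chromosome 11, 54100095 to 54131665, plus strand) was measured at 67.2 and 67.7 CPM with nt-shRNA, at 76.8, 88.2 and 89.2 CPM with shRNA1 and at 85.3, 76.5 and 77.4 CPM with shRNA2. All 6 knockdown libraries were above both controls, and the hairpins overlapped. P4ha2 was higher by a log2 fold change of 0.33 ± 0.07 with shRNA1 (edgeR adjusted p = 0.00241) and 0.24 ± 0.07 with shRNA2 (edgeR adjusted p = 0.0101). The shRNA2 call was lost without shRNA2 replicate 1 (edgeR adjusted p = 0.0578), nt-shRNA replicate 1 (0.0683) or nt-shRNA replicate 2 (0.0574). No difference between the hairpins was detected for P4ha2 (edgeR log2 fold change -0.09, 95% interval -0.23 to 0.05, adjusted p = 0.319).

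In TPM, P4ha1 divided by P4ha2 was 2.73 and 2.98 in the nt-shRNA libraries, 1.34, 1.10 and 1.29 with shRNA1 and 0.689, 0.635 and 0.787 with shRNA2. P4ha1 was thus the more abundant of these subunits in the control and shRNA1 libraries and P4ha2 in the shRNA2 libraries. The groups did not overlap, and the exact two-sided permutation p was again at the smallest value possible (0.2, 0.2 and 0.1).

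**Figure D3:**
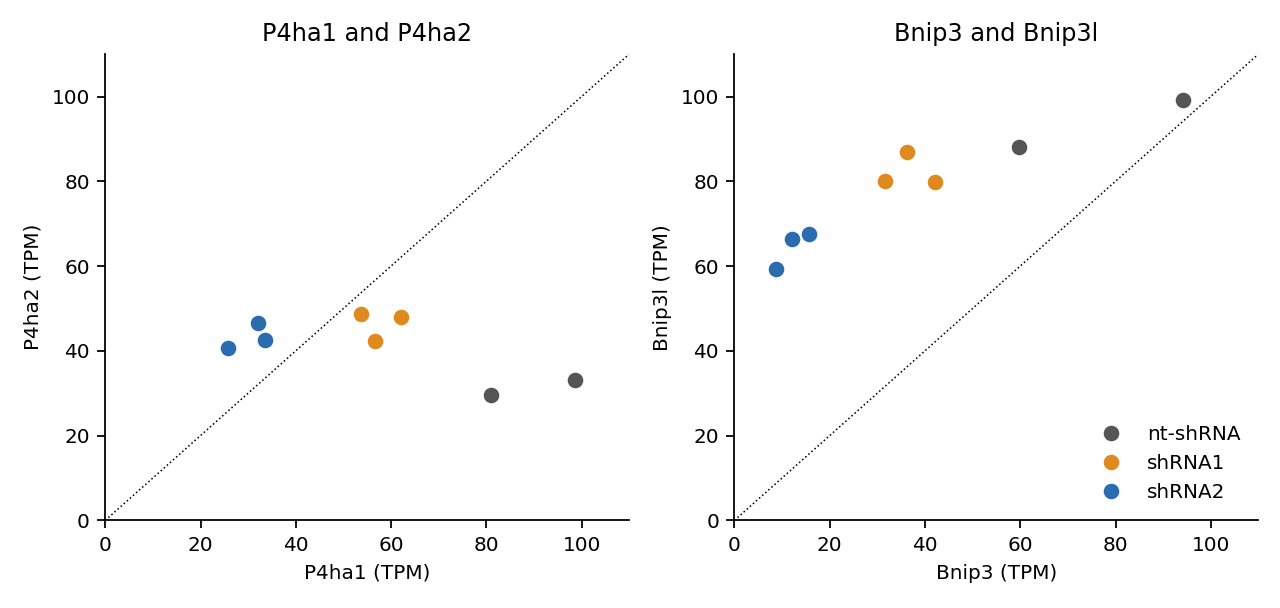
Levels of P4ha1 against P4ha2 and of Bnip3 against Bnip3l in TPM, with 1 point per library coloured by group and a dotted line of equal level. P4ha1 to P4ha2 fell from 2.73 and 2.98 in the controls to between 0.635 and 0.787 with shRNA2, crossing the line. By TPM over the full gene length, Bnip3 stayed below Bnip3l in all 8 libraries, although some Bnip3 exon bases could not be counted.

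Kdm3a (chromosome 6, 71588972 to 71632990, minus strand) encodes a histone H3 lysine 9 demethylase, and under shRNA2 it was the member raised most. Its level was 143 and 152 CPM with nt-shRNA, 189, 177 and 153 CPM with shRNA1 and 264, 289 and 230.3 CPM with shRNA2. All shRNA2 libraries lay above all others, and shRNA1 replicate 3 was barely above the higher control. The log2 fold change of Kdm3a with shRNA2 was 0.83 ± 0.09 (edgeR adjusted p = 3.08e-07), a level 1.77-fold higher, and shRNA2 exceeded shRNA1 by 0.60 ± 0.08 (edgeR adjusted p = 1.97e-05). With shRNA1 the log2 fold change was 0.23 ± 0.09 and was not called (edgeR adjusted p = 0.0568). Kdm3a passed with shRNA1 in 8 of 15 other settings, among them the fits without shRNA1 replicate 3 (0.31, edgeR adjusted p = 0.00804) and without either shRNA2 replicate 2 or 3.

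Ankrd37 (chromosome 8, 45996902 to 46005707, minus strand) encodes a small ankyrin repeat protein. Its level was 7.68 and 8.26 CPM with nt-shRNA, 5.64, 5.43 and 6.17 CPM with shRNA1 and 4.84, 4.37 and 4.13 CPM with shRNA2, from 90 to 237 counts. The groups did not overlap. The log2 fold change of Ankrd37 was -0.84 ± 0.14 with shRNA2 (edgeR adjusted p = 4.67e-05) and -0.47 ± 0.14 with shRNA1 (edgeR adjusted p = 0.0127). The shRNA1 call was lost without shRNA1 replicate 2 (edgeR adjusted p = 0.0557), without nt-shRNA replicate 2 (0.108) and with library size alone (0.0526). The difference between the hairpins, -0.37 ± 0.13 (edgeR adjusted p = 0.0352), was lost in 6 of 15 other settings, among them the fits without shRNA1 replicate 1 or 3 or shRNA2 replicate 2 or 3. Exons of Ufsp2 and Lrp2bp cover 26.4% of the exon bases of Ankrd37, and Ufsp2, the more abundant of these neighbours, had a mean of 55.5, 46.7 and 33.7 CPM in the nt-shRNA, shRNA1 and shRNA2 libraries, so the counts of Ankrd37 are uncertain.

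**Figure D4:**
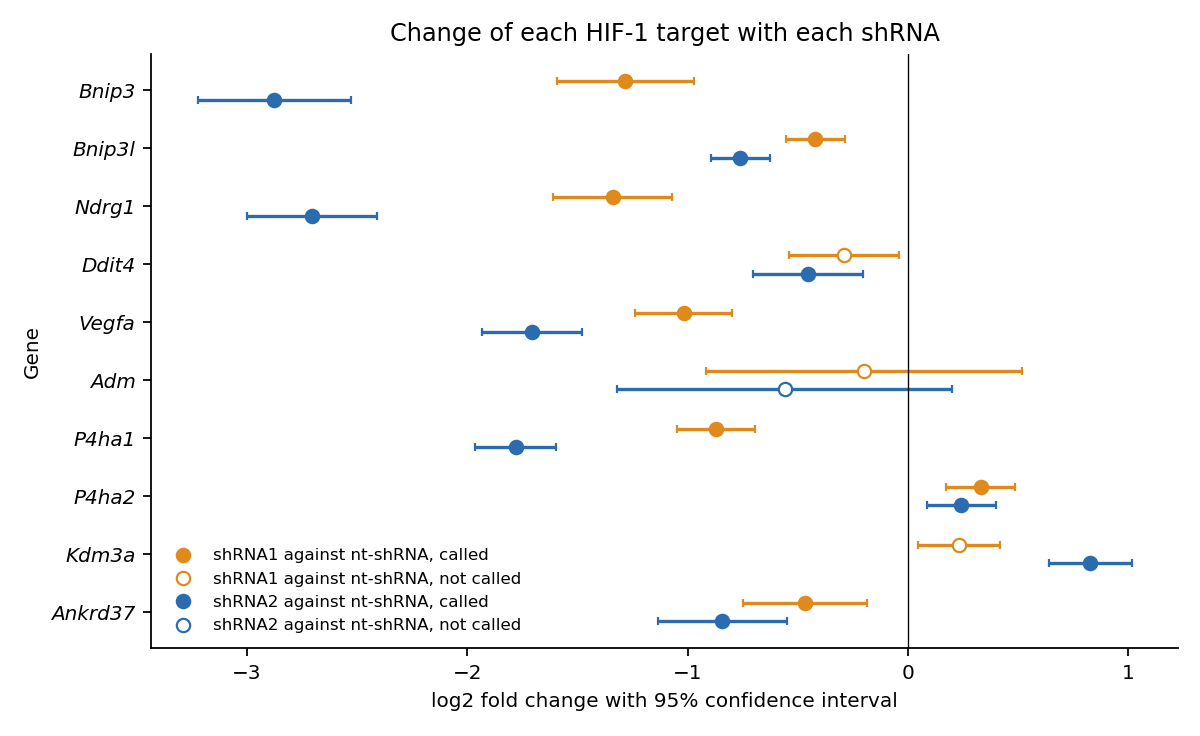
Log2 fold change of each HIF-1 target with shRNA1 and with shRNA2 against nt-shRNA, with 95% confidence intervals from the edgeR fit. Filled points were called at an adjusted p under 0.05 and open points were not. Bnip3 and Ndrg1 lie furthest to the left under shRNA2 (-2.88 and -2.70), and P4ha2 and Kdm3a lie to the right of 0.

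The order of the members by TPM also changed with the hairpins. TPM was used to compare genes within a group, and TMM-scaled CPM to compare groups. In the nt-shRNA libraries Ddit4 had the highest level (323 TPM on average), followed by Vegfa (115), Bnip3l (93.6), P4ha1 (89.8), Bnip3 (77.0), Kdm3a (52.1), P4ha2 (31.4), Ndrg1 (22.2), Ankrd37 (15.1) and Adm (1.46), where Bnip3l, P4ha1 and Bnip3 overlapped with their neighbours. With shRNA1 the order was Ddit4 (311), Bnip3l (82.3), Kdm3a (71.9), Vegfa (66.8), P4ha1 (57.5), P4ha2 (46.4), Bnip3 (36.7), Ankrd37 (12.7), Ndrg1 (10.2) and Adm (1.47). The neighbours whose ranges overlapped were Kdm3a with Vegfa, Vegfa with P4ha1, and Ankrd37 with Ndrg1. With shRNA2, Ddit4 (276 TPM) was followed by Kdm3a (107), Bnip3l (64.4), P4ha2 (43.2), Vegfa (41.3), P4ha1 (30.4), Bnip3 (12.2), Ankrd37 (9.77), Ndrg1 (3.97) and Adm (1.15), with P4ha2 and Vegfa, and Bnip3 and Ankrd37, overlapping. Kdm3a thus moved from the sixth place to the second and Vegfa from the second to the fifth.

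The libraries with shRNA1 were not alike in these genes. For 8 of the 10 members, shRNA1 replicate 3 was the shRNA1 library nearest the control mean, and shRNA1 replicate 1 was nearest for the other two. With shRNA2, replicate 3 was nearest for 5 members, replicate 1 for 3 and replicate 2 for 2. Bnip3, Bnip3l, Ndrg1, Vegfa and P4ha1 were called lower in all 3 comparisons in each of 16 settings, which include the fits that each left out 1 library. In those settings the log2 fold change under shRNA2 ranged from -3.11 to -2.60 for Bnip3, from -2.83 to -2.57 for Ndrg1, from -1.83 to -1.58 for Vegfa, from -1.85 to -1.68 for P4ha1 and from -0.78 to -0.67 for Bnip3l.

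Among 32 other HIF-1 targets, 30 were tested, and Epo and Lox were too low. With shRNA1, 16 were lower and 2 higher with a median log2 fold change of -0.35, and with shRNA2, 23 were lower and 3 higher with a median of -0.71. Among all tested genes the shares were 17.1% lower and 13.8% higher with shRNA1, and 28.7% lower and 27.2% higher with shRNA2. The 2 called higher with shRNA1 became 1 without nt-shRNA replicate 1. The 3 with the smallest adjusted p-values under shRNA2 were Bhlhe40, a clock-linked repressor (-1.91 ± 0.10), Ndufa4l2, a mitochondrial protein induced in hypoxia (-3.60 ± 0.22), and Tfrc, the transferrin receptor (-1.41 ± 0.10), with edgeR adjusted p-values of 5.68e-11, 2.21e-10 and 1.04e-09. With shRNA1 their log2 fold changes were -0.83, -1.51 and -1.22. Angptl4, an inhibitor of lipoprotein lipase, went furthest against the list, at 0.63 ± 0.15 with shRNA2 (edgeR adjusted p = 0.00154) and 0.13 with shRNA1 (not called, edgeR adjusted p = 0.565).

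Of 20 glycolytic HIF-1 targets, 19 were lower and none was higher with shRNA1 (median log2 fold change -0.70), and 19 were lower and 1 was higher with shRNA2 (median -1.26). These counts stand against the same shares of all tested genes, 17.1% and 13.8% with shRNA1 and 28.7% and 27.2% with shRNA2. Pgk1, which makes ATP in lower glycolysis (-1.78 ± 0.09), Pfkp, a phosphofructokinase subunit (-1.85 ± 0.09), and Aldoc, an aldolase (-3.12 ± 0.17), had the smallest adjusted p-values under shRNA2 (3.6e-11, 3.6e-11 and 6.96e-11, edgeR). The gene called higher with shRNA2 was Pfkfb4, a regulator of phosphofructokinase, at 0.32 ± 0.13 (edgeR adjusted p = 0.0445), a call lost in 8 other settings. The values of P4ha1 (-1.78) and Bnip3 (-2.88) under shRNA2 lay within the range of these enzymes, a comparison between genes that was not tested.

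The factors that sense oxygen had medians nearer 0. Of 10 genes for HIF subunits and oxygen sensors, 5 were lower and none higher with shRNA1 (median log2 fold change -0.17), and 6 were lower and 2 higher with shRNA2 (median -0.32). Of all tested genes, 17.1% were lower and 13.8% higher with shRNA1, and 28.7% were lower and 27.2% higher with shRNA2. The 5 fell to 3 without shRNA1 replicate 2 or without nt-shRNA replicate 2, and to 2, with 1 higher and a median of -0.05, with library size alone. Egln1 and Egln3, HIF prolyl hydroxylases that are also HIF-1 targets, each stand in this list and in that of other HIF-1 targets. Egln3 was at -0.92 ± 0.11 with shRNA1 (edgeR adjusted p = 8.28e-06) and -1.49 ± 0.12 with shRNA2 (edgeR adjusted p = 6.12e-09). Hif3a, an alpha subunit that can restrain the others, was at -0.44 and -1.28, and Arnt, the beta subunit, at -0.21 and -0.47, all called. The calls of Hif3a and Arnt with shRNA1 were each lost in 3 or more other settings. Arnt2, the second beta subunit, was furthest against the list at 0.30 ± 0.12 with shRNA2 (edgeR adjusted p = 0.043), lost in 10 other settings. The RNA of Hif1a itself, named here after its values were seen, was at -0.12 with shRNA1 (not called, edgeR adjusted p = 0.15) and -0.27 with shRNA2 (edgeR adjusted p = 0.00135).

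The relatives and partners of the members, which are not known as a group for control by HIF-1, held genes called in each direction. Of 27 such genes 25 were tested, of which 7 were lower and 8 higher with shRNA1 (median log2 fold change 0.06) and 10 lower and 8 higher with shRNA2 (median 0.08), against 17.1% lower and 13.8% higher with shRNA1 and 28.7% lower and 27.2% higher with shRNA2 among all tested genes. The 8 called higher with shRNA1 fell to 4 or 5 without shRNA1 replicate 1 or 2, to 3 without nt-shRNA replicate 1, to 2 without nt-shRNA replicate 2 and to 3 with DESeq2. The shRNA1 median was 0.02 without shRNA1 replicate 1, 0.14 without shRNA1 replicate 2, 0.03 without nt-shRNA replicate 1 and 0.12 without nt-shRNA replicate 2, and 0.17 with library size alone. The shRNA2 median was 0.17 without nt-shRNA replicate 1 and -0.09 with a minimum of 10 counts in each library, so its sign was not settled. Ndrg2, a relative of Ndrg1, was lower, at -0.69 ± 0.10 with shRNA1 and -1.36 ± 0.11 with shRNA2 (edgeR adjusted p = 6.65e-05 and 5.72e-09). Ddit4l, a relative of Ddit4, was higher, at 1.00 ± 0.11 and 1.28 ± 0.11 (edgeR adjusted p = 1.42e-06 and 8.53e-09), whereas Ddit4 itself was lower with shRNA2. Adm2, a peptide related to Adm, was at -1.10 ± 0.19 and -1.71 ± 0.20 (edgeR adjusted p = 0.000205 and 8.61e-07).

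**Figure D5:**
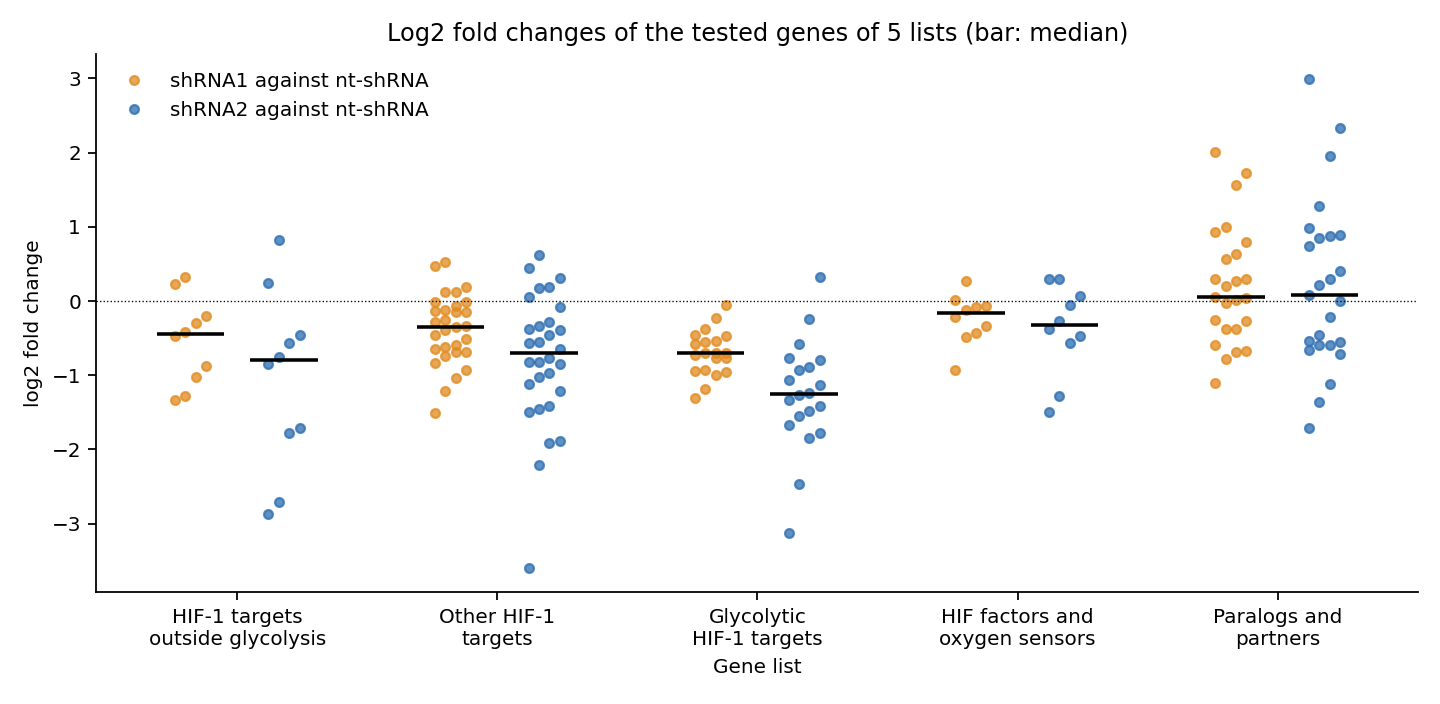
Log2 fold changes with shRNA1 and shRNA2 against nt-shRNA for the tested genes of 5 lists (10, 30, 20, 10 and 25 genes). Points are genes and bars are medians. The medians under shRNA2 are -0.80 for the HIF-1 targets outside glycolysis, -0.71 for other HIF-1 targets, -1.26 for glycolytic targets, -0.32 for HIF factors and oxygen sensors and 0.08 for paralogs and partners.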

How the data were processed

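The authors aligned paired reads with STAR (build mm10, per the labels), counted fragments on the exons of GENCODE M24 with featureCounts 1.6.2 and deposited raw counts per gene. Strand was ignored, and fragments with several alignments or shared by genes were not counted. Of 55385 Ensembl identifiers, 55144 had a symbol in GENCODE M21. All per-sample columns were used.

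The analysis used edgeR 4.0.16 in R 4.3.3. Genes passing filterByExpr (minimum count 10) were scaled by TMM and tested with glmQLFit and glmQLFTest over all 8 libraries, in a model of the 3 groups without a block, and p-values were adjusted by Benjamini-Hochberg over 17445 genes. The standard error (SE) was taken from the F statistic. The biological coefficient of variation was 0.0638. CPM used TMM library sizes, and TPM used the deposited gene lengths. The code was tested on simulated data. The 10 members and all lists were chosen with earlier results of these data known. The genes named were the members, Eftud2 and, of each other list, the 3 most significant under shRNA2 and the tested gene whose shRNA2 value lay furthest against the median. Permutation tests were exact, with scipy 1.17.1, and figures used matplotlib 3.10.9.

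The alternatives were DESeq2 1.42.0 (the authors' own test), edgeR with DESeq2 size factors, scaling by library size alone, all genes unfiltered, a minimum of 10 counts in each library, a fit of only the groups compared, the replicate block, and leaving out each library.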

Additional observations from a re-analysis of the deposited data

Results flagged for a closer look

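For 7 of the 10 HIF-1 targets outside glycolysis, the direct test of shRNA2 against shRNA1 (edgeR, adjusted over 17445 genes) found that the hairpins differed, against 18.7% of all tested genes called lower and 16.9% called higher. The log2 fold changes between them were -1.59 for Bnip3, -1.36 for Ndrg1, -0.91 for P4ha1, -0.69 for Vegfa, -0.34 for Bnip3l, -0.37 for Ankrd37 and 0.60 for Kdm3a. In each of these genes the shRNA2 libraries did not overlap the shRNA1 libraries. The call of Ankrd37 was lost in 6 of 15 other settings. The RNA of Eftud2 was not called in the same test (log2 fold change -0.11, edgeR adjusted p = 0.164), but it was without shRNA2 replicate 3 (-0.19, edgeR adjusted p = 0.0127). Single outlying samples were checked only by leaving out each library in turn.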

How the results depend on the processing

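Of 446 refits of the members' log2 fold changes, 418 kept direction and call, 13 lost the call, 13 gained one and 2 changed sign, both in uncalled genes: Adm with shRNA1 (leaving out 1 library each, -0.45 to 0.046) and Ddit4 between hairpins (-0.30 to 0.00097). Arnt2 between hairpins (-0.024 to 0.092) and Pfkfb4 with shRNA1 (-0.12 to 0.013, and 0.057 with library size alone) also changed sign. The count of members called higher with shRNA1 was 2 and not 1 with scaling by library size alone, without the filter, with a minimum of 10 counts in each library, with only the groups compared or with the replicate block (1 to 2 leaving out single libraries), and with shRNA2 it was 1 to 2 leaving out single libraries. Library size alone also moved the median of all genes with shRNA1 to 0.11 and the share of calls that were higher from 44.7% to 70.5%, and from 48.7% to 58.9% with shRNA2. With the replicate block, Kdm3a passed with shRNA1 (0.31, edgeR adjusted p = 0.00103), as did Eftud2 (-0.21, edgeR adjusted p = 0.0206). Deviations of libraries of the same number correlated weakly (r from -0.0259 to 0.0742), against r from -0.0827 to 0.0277 for different numbers. The numbers were not taken as pairs in the main model, but a pairing is not excluded. Adm was not tested under the minimum of 10 counts, and DESeq2 gave it no adjusted p between the hairpins. Adm had the fewest counts of the members (8 to 23 per library). The causes were not tested.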
